A study of Rattus norvegicus with 16 samples.

Results

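The genes described here encode Wnt ligands, their Frizzled receptors and the proteins that modulate binding between them, measured in bone marrow mesenchymal stromal cells (MSCs) of the rat. They were taken by gene name: every gene named Wnt, Fzd, Sfrp, Dkk or Rspo followed by a digit, plus a fixed set made of Frzb, Wif1, Lrp5, Lrp6, Lgr4, Lgr5, Axin2, Lef1, Tcf7 and Ror2. This gave 44 of the 26689 genes of the table, namely 15 Wnt genes, 9 Frizzled genes, 5 secreted Frizzled-related genes with Frzb among them, 4 Dickkopf genes, 4 R-spondins, Lrp5, Lrp6, Lgr4, Lgr5, Lef1, Tcf7 and Wif1. Sfrp4 was recognised from its pathway annotation because its gene name field was empty, and Axin2 and Ror2 are not analysed here.

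Wnt proteins are secreted lipid-modified ligands that bind Frizzled receptors together with a co-receptor. With Lrp5 or Lrp6 as co-receptor they stabilise beta-catenin, which then acts with Tcf and Lef transcription factors, whereas ligands such as Wnt5a are best known for signalling that does not use beta-catenin. Secreted Frizzled-related proteins and Wif1 bind Wnt ligands, Dickkopf proteins bind the co-receptors, and R-spondins act through Lgr receptors to keep Frizzled on the cell surface. In the bone marrow these pathways are known for their part in the choice of MSCs between bone and fat cells.

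The MSCs came from 4 adult female wild type Sprague-Dawley rats, numbered 2, 3, 4 and 8, and had been sorted as CD29+/CD45- cells. Cells of each rat were kept for 24 h in each of 4 media, which gave 16 RNA-seq libraries, n = 4 per condition, each with 23291125 to 31992709 counted fragments. D10 is the DMEM culture medium with 10% serum, and M0CM and M1CM are media taken from cultures of unpolarized and of inflammatory primary macrophages. Pol1 holds the polarizing factors without macrophages, labelled as D10 with lipopolysaccharide (LPS) at 100 ng/ml and interferon gamma (IFNg) at 20 ng/ml. The methods of the study describe the macrophage media, and the polarization medium, as RPMI-based and give another interferon dose, so a comparison with D10 may also compare base media. M0CM against D10, which would hold the same change of base, called 0 of the 29 tested genes, beside 0.125% and 0.0148% of all tested genes called higher and lower. With a term for the rat it called 2 higher and 1 lower. M1CM against M0CM compares media described on the same base. By the methods, the medium of the polarized cultures also held macrophage colony stimulating factor (M-CSF), which is not named for the fresh medium of the M0 cultures. The part of base medium and M-CSF was not tested. The M1CM also came from macrophages that had received LPS and IFNg, and what remained of them in the medium was not measured here. In these bulk libraries, fewer cells of a type and less RNA per cell cannot be told apart.

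Defining MSC markers were present in every library, with a summed level over 6 genes of 3730 to 7600 CPM, where CPM is counts per 1e6 counts after TMM scaling, a correction for library composition. Of 12 macrophage and monocyte markers, the summed level was 5.27 to 9.45 CPM in D10, 7.28 to 11.6 CPM in Pol1, 17.2 to 40.8 CPM in M1CM and 19.0 to 23.3 CPM in M0CM. Ptprc, the gene of CD45, was among the markers at 0 in D10 and Pol1, as were Adgre1 and Tyrobp, and Mrc1 and Tyrobp were at 0 in M1CM. The largest parts of the M1CM sum were Cd14 at 16.9 CPM and Cd68 at 4.19 CPM on average, while Ptprc and Adgre1 averaged 0.115 and 0.101 CPM. In M1CM against D10, 4 of 8 tested macrophage markers rose and 2 fell, beside 23.3% and 21.1% of all tested genes. Of the MSC markers, Cd44 rose from 256 to 853 CPM and Itgb1, the gene of CD29, fell from 3080 to 1370 CPM. The part of these transcripts in the results below was not tested.

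Of the 44 genes, 29 had at least 10 counts in at least 4 libraries and were tested with edgeR's quasi-likelihood test among 13556 genes, with Benjamini-Hochberg adjusted p below 0.05 as the threshold for a call. The other 15 were barely transcribed or silent. Wnt3a, Wnt8a, Wnt8b and Wnt9b had no count in any library. Summed over 16 libraries, Wnt11 had 99 counts, Fzd9 75, Wnt6 70, Dkk4 37, Sfrp5 35, Rspo2 27, Dkk2 10, Wnt3 7, Wnt7a 4, Fzd10 3 and Dkk1 2. A gene with 0 counts in a library could still be present at up to 3 counts, so these values set limits at this depth, for counting error only. Fzd9 counts were 3, 3, 7 and 5 in D10, 0, 0, 1 and 0 in Pol1, and 9, 0, 9 and 18 in M1CM for rats 2, 3, 4 and 8, too few for the filter.

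On the deposited FPKM scale, which allows levels to be set between genes because it divides by gene length, naive MSCs in D10 were led by Fzd2 at 121 ± 12.6 FPKM (SD, n = 4), Dkk3 at 106 ± 12.7 FPKM and Fzd1 at 88.3 ± 21.8 FPKM. The ranges of these 3 genes overlapped between neighbours. Wnt5a, the most abundant ligand, stood at 24.2 ± 2.76 FPKM and Wnt4 at 5.97 ± 2.28 FPKM, with no overlap between the libraries of these ligands. In M1CM the order was different: Fzd1 led with 269 ± 40.5 FPKM, followed by Wnt5a at 62.2 ± 34.2 FPKM, Dkk3 at 50.9 ± 7.49 FPKM and Wnt4 at 39.9 ± 8.66 FPKM, of which the last 3 overlapped.

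M1CM against D10 asks what inflammatory macrophage medium did to naive MSCs. In it 8 of 29 tested genes rose and 10 fell, beside 23.3% of all tested genes called higher and 21.1% called lower. The median log2 fold change was -0.04 over the 29 genes and -0.008 over all tested genes. The genes that rose were Wnt4, Wnt5a, Wnt2b, Wnt7b, Fzd1, Sfrp2, Rspo3 and Rspo4, and those that fell were Wnt9a, Wnt16, Fzd2, Fzd4, Fzd5, Fzd7, Lgr4, Lrp6, Rspo1 and Dkk3. Wnt7b and Rspo4 met the count filter only with libraries of media in which they were called higher, so their place among the tested genes depended on that rise. Pol1 against D10, the control for the polarizing factors, had 4 higher and 4 lower (10.6% and 8.09% of all tested genes), and both comparisons share the D10 libraries. With a term for the rat in the fit, which the design allows because every rat gave cells to every medium, the Pol1 counts became 8 higher and 7 lower. In that fit 2203 and 2192 of all 13556 tested genes were called higher and lower. The M1CM counts became 9 higher and 11 lower with the rat term, as Sfrp1 and Fzd6 joined, beside 3771 and 3719 of all tested genes.

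**Figure D1:**
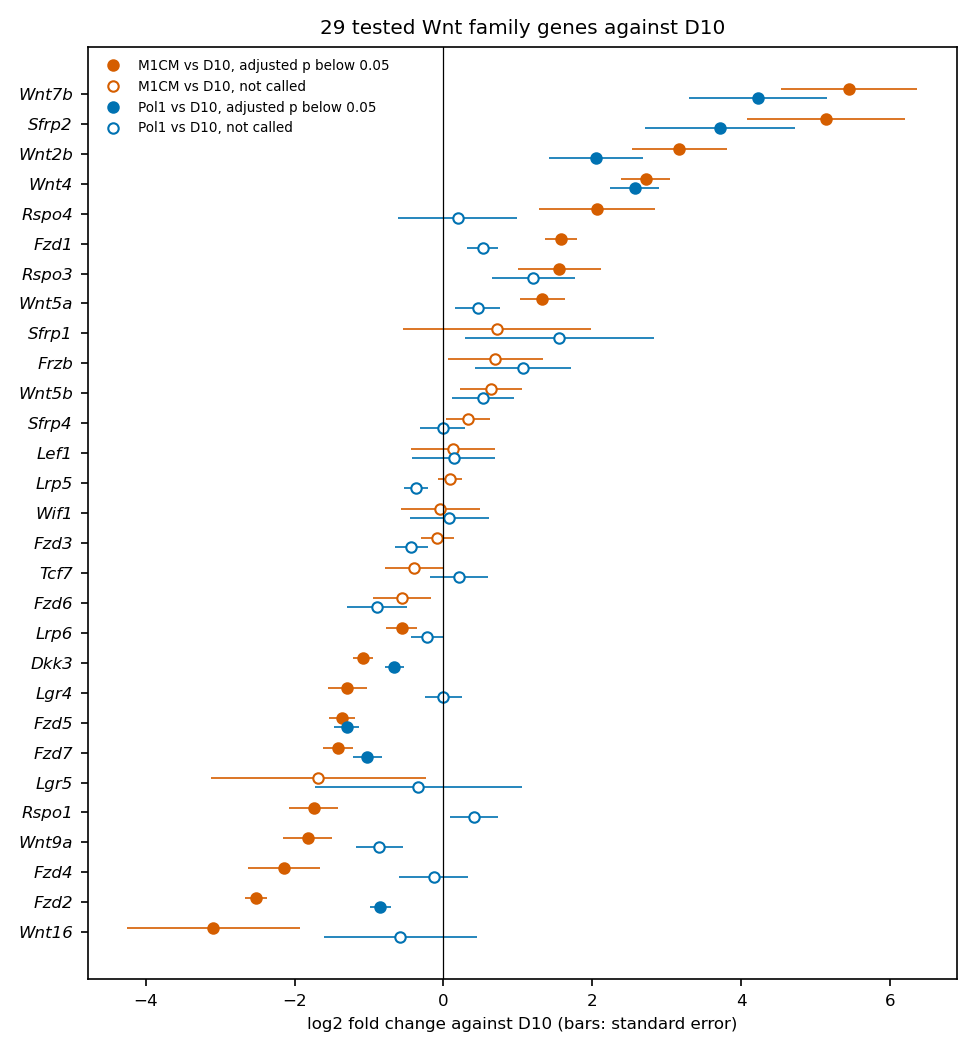
Fitted log2 fold change against D10 (horizontal axis) of the 29 tested genes, ordered by M1CM, with standard errors as bars; filled points passed the threshold. Wnt7b, Sfrp2, Wnt2b and Wnt4 lie to the right in both media, while Rspo1, Fzd4 and Lgr4 lie far to the left in M1CM and near 0 or above in Pol1.

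Among the ligands, 4 of 7 tested genes rose and 2 fell in M1CM (57.1% and 28.6%, beside 23.3% and 21.1% of all tested genes). Wnt7b is counted here though it was tested only through the Pol1 and M1CM libraries in which it was high. Wnt4 (ENSRNOG00000013166), a ligand known from kidney, gonad and bone development, was at 7.69, 11.6, 5.86 and 4.83 CPM in D10 for rats 2, 3, 4 and 8. Its levels in M1CM were 56.0, 58.0, 49.2 and 33.4 CPM, and in Pol1 36.2, 59.8, 54.8 and 27.1 CPM. Every Pol1 and M1CM library lay above every D10 library, while the Pol1 and M1CM libraries overlapped. Wnt4 rose 6.57-fold in M1CM (log2 fold change 2.72, SE 0.33, edgeR adjusted p = 1.09e-05) and 5.95-fold in Pol1 (2.57, SE 0.33, edgeR adjusted p = 5.51e-05). Between M1CM and Pol1 the log2 difference was 0.14 (SE 0.31, edgeR adjusted p = 0.773), with 2 rats higher and 2 lower. In M0CM Wnt4 was at 3.27, 5.58, 5.04 and 2.69 CPM, below D10 in all 4 rats, and this passed only with the rat term (log2 fold change -0.84, edgeR adjusted p = 0.0324, against 0.876 without it).

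The windows around the RefSeq gene start (250 bases before to 50 bases after it, assembly GRCr8) of Wnt4 and of Sfrp2, a secreted Wnt modulator described further on, are shown because these genes rose in both Pol1 and M1CM. Capitals mark a match to the NF-kB motif, a binding site of a transcription factor that LPS activates. The Wnt4 window holds no such match, nor does that of Wnt2b, which also rose in both media and is not shown.
Wnt4 (chr5:154797200-154797499, plus strand): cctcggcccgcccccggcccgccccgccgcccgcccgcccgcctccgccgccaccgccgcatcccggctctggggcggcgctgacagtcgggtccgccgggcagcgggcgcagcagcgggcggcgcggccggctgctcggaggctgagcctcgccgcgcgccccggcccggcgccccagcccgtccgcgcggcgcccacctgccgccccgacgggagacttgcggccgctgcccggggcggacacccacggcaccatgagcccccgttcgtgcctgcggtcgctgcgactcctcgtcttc
Sfrp2 (chr2:171387286-171387585, plus strand): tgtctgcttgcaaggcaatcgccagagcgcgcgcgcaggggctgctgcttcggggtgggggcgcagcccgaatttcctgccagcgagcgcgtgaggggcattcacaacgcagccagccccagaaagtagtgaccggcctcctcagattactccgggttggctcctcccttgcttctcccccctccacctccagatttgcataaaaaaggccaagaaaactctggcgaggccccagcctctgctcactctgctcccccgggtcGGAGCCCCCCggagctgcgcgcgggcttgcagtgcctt

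Wnt5a differed from Wnt4 in how it moved between media. Its levels were 52.4, 53.2, 50.5 and 39.3 CPM in D10, 77.5, 57.1, 85.7 and 48.9 CPM in Pol1, and 81.0, 66.0, 206 and 136 CPM in M1CM. M1CM libraries were all above D10, rats 4 and 8 by far the most, whereas Pol1 overlapped with D10. The rise in M1CM was 2.51-fold (log2 fold change 1.33, SE 0.30, edgeR adjusted p = 0.00244), while Pol1 did not pass (0.46, SE 0.30, edgeR adjusted p = 0.322). M1CM was higher than Pol1 with a log2 difference of 0.86 (edgeR adjusted p = 0.0468), a call lost when any one rat was left out (edgeR adjusted p = 0.0565 to 0.227). It passed with a term for the rat (edgeR adjusted p = 0.0138). Within rats the M1CM to Pol1 ratio was 1.04 and 1.15 in rats 2 and 3 and 2.41 and 2.79 in rats 4 and 8.

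Wnt2b and Wnt7b, ligands that can act through beta-catenin, were scarce and rose in both media. Wnt2b counts in D10 were 5, 25, 7 and 11, against 133, 57, 61 and 159 in M1CM, or 0.429 ± 0.346 and 3.89 ± 1.77 CPM (SD, n = 4), without overlap (log2 fold change 3.17, SE 0.64, edgeR adjusted p = 0.000973). In Pol1 it reached 1.79 ± 0.708 CPM (2.05, SE 0.63, edgeR adjusted p = 0.0335), which did not pass without rat 2, 4 or 8 (edgeR adjusted p = 0.0846 to 0.201). The Pol1 rise passed with the rat term (edgeR adjusted p = 0.00544). Wnt7b had 4 counts in the D10 libraries together, 2 in M0CM, 82 in Pol1 and 177 in M1CM. It met the count filter only through its Pol1 and M1CM libraries. Its M1CM counts were 84, 63, 18 and 12 for rats 2, 3, 4 and 8, so each library was above every D10 library, which held 0 to 2 counts, and rats 2 and 3 were highest. The fitted log2 fold change was 5.45 (SE 0.92, edgeR adjusted p = 0.000227) in M1CM and 4.23 (SE 0.93, edgeR adjusted p = 0.0051) in Pol1, the latter passing no longer without rat 4 (edgeR adjusted p = 0.0506). With the rat term the Pol1 rise passed (edgeR adjusted p = 0.000609).

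Wnt9a and Wnt16 went the other way. Wnt9a was at 11.7, 11.8, 5.67 and 8.29 CPM in D10 and 3.09, 2.10, 1.93 and 3.46 CPM in M1CM, with no overlap, and fell by 1.82 on the log2 scale (SE 0.33, edgeR adjusted p = 0.000455). Pol1 libraries lay between at 7.70, 5.92, 3.48 and 3.59 CPM, lower than D10 in each rat, a difference that passed with the rat term (log2 fold change -0.87, edgeR adjusted p = 0.00291) and in DESeq2 (adjusted p = 0.0451), and not in edgeR without the term (adjusted p = 0.0821). Wnt16, a ligand known for keeping cortical bone in mice, was at 9.24, 11.2, 1.82 and 1.65 CPM in D10 and 0.772, 1.84, 0.0756 and 0.143 CPM in M1CM. Rats 2 and 3 held more than rats 4 and 8 in both media, so the groups overlapped, yet the M1CM to D10 ratio within a rat was 0.0416 to 0.165. The fall by 3.09 on the log2 scale (SE 1.16) had an edgeR adjusted p of 0.0416, which became 0.0564 to 0.154 when any one rat was left out and 8.82e-06 with the rat term. Wnt5b did not pass in either medium (log2 fold change 0.64, SE 0.42, in M1CM).

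**Figure D2:**
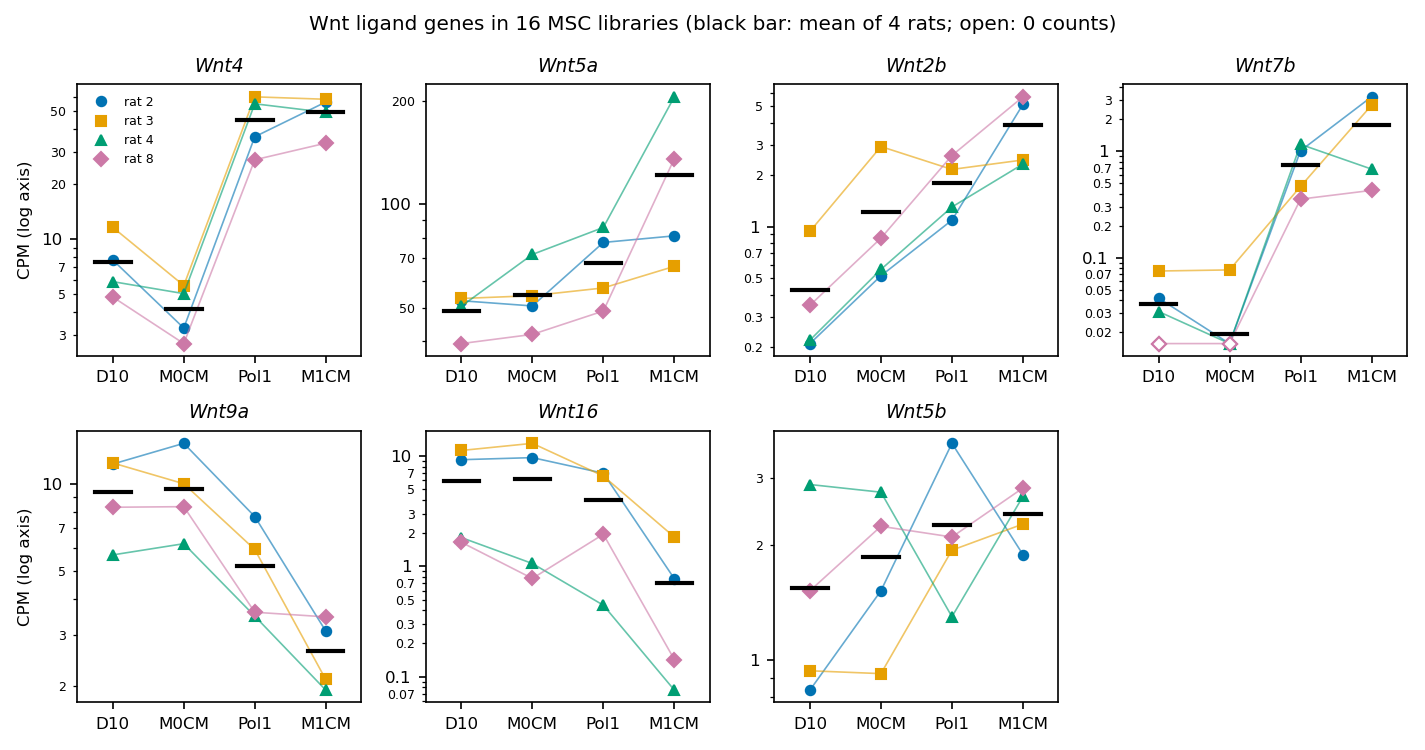
CPM (log axis) of the 7 tested Wnt genes by medium, each point 1 library, lines joining libraries of 1 rat, black bars the mean of 4 rats, and open symbols libraries with 0 counts, drawn below the lowest level above 0. Wnt4 steps up in Pol1 and stays there in M1CM, Wnt5a is highest in M1CM of rats 4 and 8, and Wnt9a and Wnt16 are lowest in M1CM.

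Summed over the Wnt genes, transcript levels were 37.5 ± 7.66 FPKM in D10 and 39.3 ± 7.76 FPKM in M0CM (SD, n = 4), and reached 78.8 ± 18.3 FPKM in Pol1 and 108 ± 30.7 FPKM in M1CM. Wnt5a made up 65.4% of the sum in D10 and 54.6% in M1CM, while the share of Wnt4 was 15.5% in D10 and 8.51% in M0CM, against 46.4% in Pol1 and 39.0% in M1CM. Every Pol1 library, at 53.8 to 95.9 FPKM, was above every D10 library, at 28.6 to 46.5 FPKM.

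Among the receptors, 1 of 7 tested Frizzled genes rose in M1CM and 4 fell (14.3% and 57.1%, beside 23.3% and 21.1% of all tested genes). Fzd1 (ENSRNOG00000016242) was at 347, 510, 285 and 355 CPM in D10, 453, 687, 468 and 547 CPM in Pol1, and 993, 1320, 1010 and 1160 CPM in M1CM. The M1CM libraries lay above all others, and Pol1 overlapped with D10. Fzd1 rose 3.00-fold (log2 fold change 1.58, SE 0.22, edgeR adjusted p = 3.47e-05) against D10 and by 1.06 on the log2 scale against Pol1 (SE 0.21, edgeR adjusted p = 0.00246). Against D10 the Pol1 value was 0.53 (edgeR adjusted p = 0.105), and it passed with the rat term (edgeR adjusted p = 0.00159) and without rat 3 (edgeR adjusted p = 0.0263).

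Fzd2 (ENSRNOG00000021962) mirrored Fzd1. It was at 218, 270, 237 and 216 CPM in D10, 137, 131, 114 and 141 CPM in Pol1, and 49.7, 34.2, 35.3 and 44.3 CPM in M1CM, and these 3 groups did not overlap. Fzd2 fell 5.75-fold in M1CM (log2 fold change -2.52, SE 0.15, edgeR adjusted p = 6.9e-09) and 1.80-fold in Pol1 (-0.85, SE 0.14, edgeR adjusted p = 0.000656). M1CM was also 3.20-fold below Pol1 (-1.68, SE 0.15, edgeR adjusted p = 3.12e-06).

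The other Frizzled genes did not share 1 pattern. Fzd5 was at 9.24, 6.80, 7.33 and 7.84 CPM in D10, 3.32, 3.02, 2.66 and 3.70 CPM in Pol1, and 2.59, 3.08, 3.33 and 3.14 CPM in M1CM. It fell to a like level in both media (log2 fold change -1.30 in Pol1, edgeR adjusted p = 6.5e-05; -1.36 in M1CM, edgeR adjusted p = 1.34e-05), and between them the difference was -0.06 (SE 0.17, edgeR adjusted p = 0.814). Fzd7 fell in both media too, from 71.6 ± 21.4 CPM in D10 to 35.4 ± 2.61 CPM in Pol1 (log2 fold change -1.02, edgeR adjusted p = 0.00259) and 26.8 ± 2.55 CPM in M1CM (-1.42, edgeR adjusted p = 5.43e-05).

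Fzd4 passed against D10 in M1CM and not in Pol1 or M0CM. Its levels were 18.6, 35.4, 64.9 and 70.6 CPM in D10, 21.8, 26.2, 78.8 and 46.8 CPM in Pol1, and 14.3, 12, 7.14 and 9.61 CPM in M1CM. Rats 4 and 8, with the most Fzd4 in D10 and Pol1, had the least in M1CM, where all 4 libraries were below all D10 and Pol1 libraries. The log2 fold change was -2.14 (SE 0.48, edgeR adjusted p = 0.00229) against D10 and -2.01 (SE 0.48, edgeR adjusted p = 0.00712) against Pol1, the latter lost without rat 4 or rat 8 (edgeR adjusted p = 0.0766 and 0.0597). The fall against Pol1 passed with the rat term (edgeR adjusted p = 0.0028). Fzd6 was lower than D10 in all 4 rats in both media and passed with the rat term (log2 fold change -0.58 in M1CM, edgeR adjusted p = 0.00484, against 0.275 without it, and -0.90 in Pol1, edgeR adjusted p = 0.000434, against 0.14). The Pol1 difference of Fzd6 also passed without rat 2 (edgeR adjusted p = 0.0382). Fzd3 did not pass in either medium and stood at 8.76 CPM in D10, 6.52 CPM in Pol1 and 8.31 CPM in M1CM.

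Gene start windows of the Frizzled gene that rose and of the 3 that fell and have a window are shown to set them side by side. Capitals mark an NF-kB motif in Fzd5 and, in Fzd4, the letters TTCNNNGAA (GAS, the site of interferon-activated STAT factors); Fzd1 and Fzd7 hold none of the motifs searched.
Fzd1 (chr4:30264824-30265123, plus strand): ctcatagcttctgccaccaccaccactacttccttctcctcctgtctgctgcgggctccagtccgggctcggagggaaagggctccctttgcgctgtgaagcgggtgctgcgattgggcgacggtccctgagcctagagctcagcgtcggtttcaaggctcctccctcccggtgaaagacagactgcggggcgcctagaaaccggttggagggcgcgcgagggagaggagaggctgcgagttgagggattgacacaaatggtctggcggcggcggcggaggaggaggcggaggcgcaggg
Fzd5 (chr9:73613990-73614289, minus strand): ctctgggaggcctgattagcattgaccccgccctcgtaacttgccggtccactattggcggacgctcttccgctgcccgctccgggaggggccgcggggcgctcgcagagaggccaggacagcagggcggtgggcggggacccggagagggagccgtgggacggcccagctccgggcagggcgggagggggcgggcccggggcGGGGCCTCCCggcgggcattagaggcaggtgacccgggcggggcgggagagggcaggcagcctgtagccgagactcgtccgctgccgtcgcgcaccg
Fzd4 (chr1:152692257-152692556, plus strand): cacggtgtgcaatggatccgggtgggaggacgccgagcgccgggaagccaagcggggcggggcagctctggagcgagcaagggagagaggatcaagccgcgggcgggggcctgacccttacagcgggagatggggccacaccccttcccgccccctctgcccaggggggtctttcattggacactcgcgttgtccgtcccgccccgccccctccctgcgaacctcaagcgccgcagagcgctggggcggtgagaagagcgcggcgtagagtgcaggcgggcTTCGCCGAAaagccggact
Fzd7 (chr9:68425288-68425587, plus strand): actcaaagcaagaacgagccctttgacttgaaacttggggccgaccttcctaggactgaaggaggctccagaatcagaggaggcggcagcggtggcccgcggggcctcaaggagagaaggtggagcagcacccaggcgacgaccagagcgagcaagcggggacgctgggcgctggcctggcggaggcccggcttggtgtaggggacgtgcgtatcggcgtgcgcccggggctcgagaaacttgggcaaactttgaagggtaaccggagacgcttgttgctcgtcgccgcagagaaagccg

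**Figure D3:**
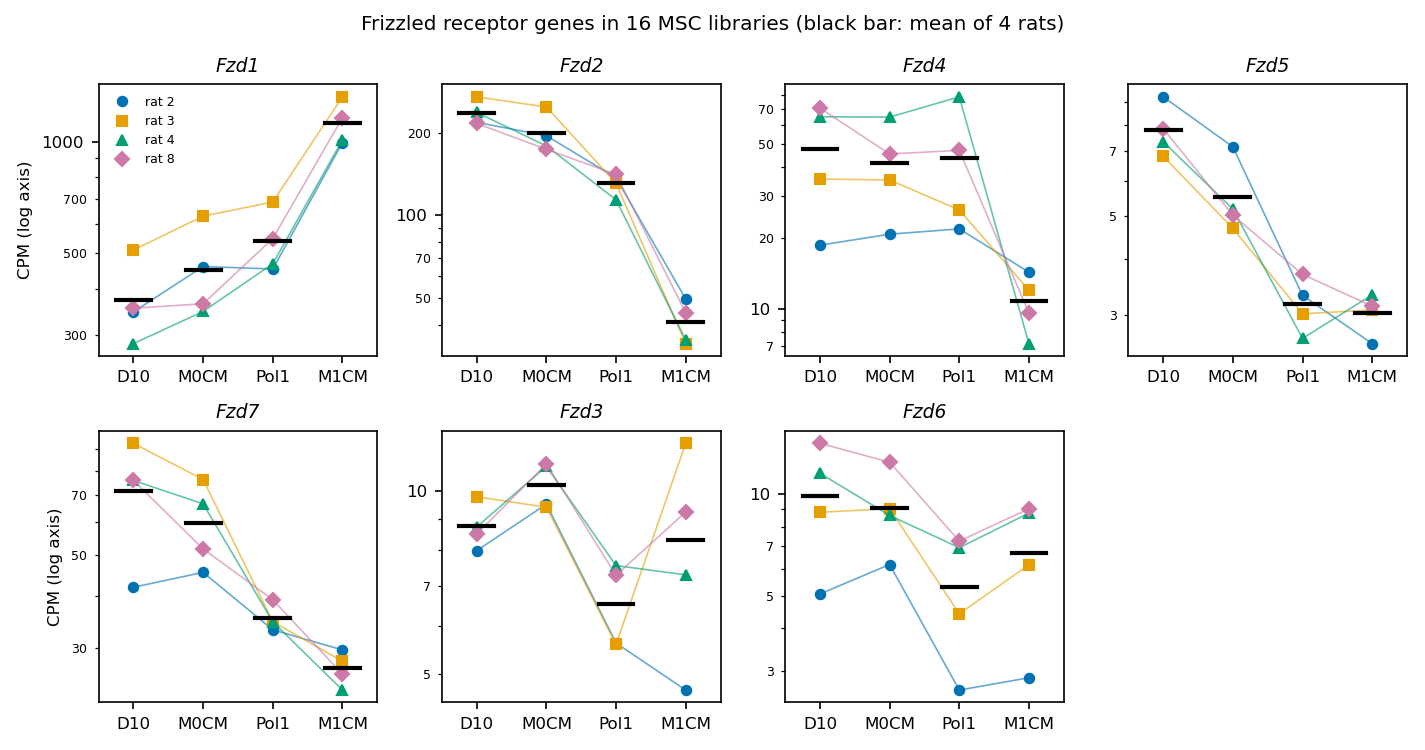
CPM (log axis) of the 7 tested Frizzled genes by medium, each point 1 library, lines joining libraries of 1 rat and black bars the mean of 4 rats. Fzd1 is highest in M1CM, Fzd2 steps down from D10 to Pol1 to M1CM, Fzd5 and Fzd7 are low in both Pol1 and M1CM, and Fzd4 is low in M1CM.

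The summed Frizzled level overlapped between media while its make-up differed. Summed Frizzled levels were 285 ± 44.3 FPKM in D10 (SD, n = 4), 279 ± 47.1 FPKM in M0CM, 253 ± 28.9 FPKM for Pol1 and 318 ± 40.3 FPKM for M1CM. Fzd1 held 30.9 ± 5.13% of the sum in D10 and 38.5 ± 5.26% in M0CM, then 52.2 ± 5.90% in Pol1 and 84.5 ± 2.31% in M1CM. The Fzd2 share was 42.7 ± 3.75%, 37.4 ± 1.39%, 27.8 ± 3.94% and 6.79 ± 1.64% in the same order. In M1CM the Fzd1 share was 81.3% or more in each library, against at most 35.4% in D10. Shares are a description, since a rise of Fzd1 lowers every other share.

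**Figure D4:**
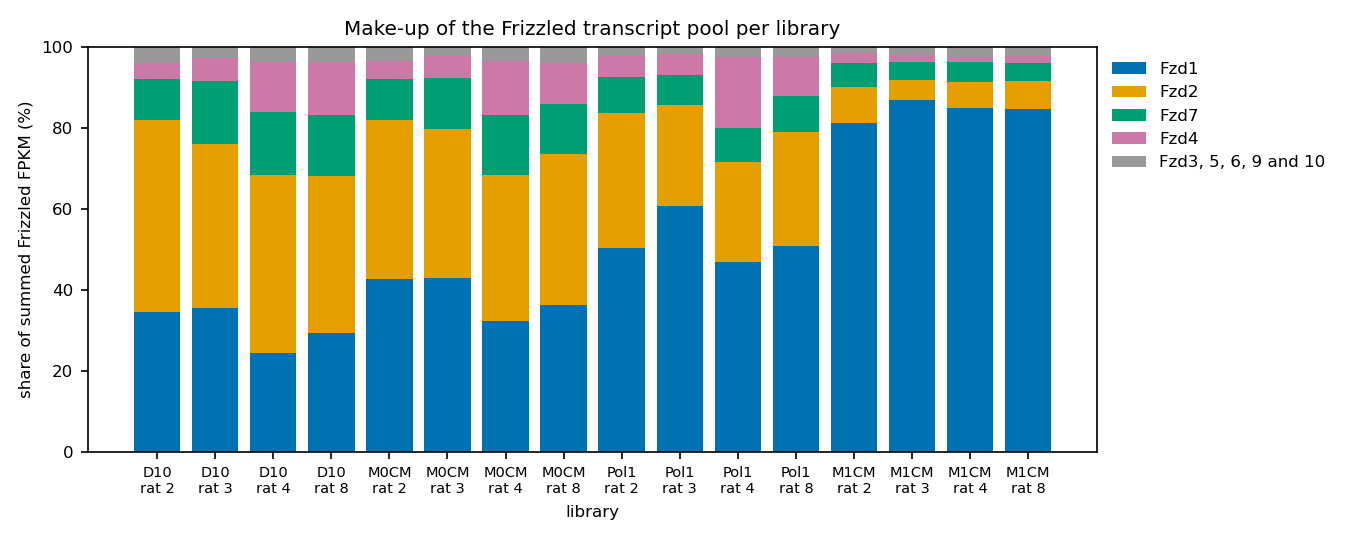
Share of summed Frizzled FPKM (%) held by each receptor gene in each of the 16 libraries, as stacked bars from 0 to 100%. Fzd2 is the largest part in D10 of all 4 rats, and Fzd1 takes 81.3 to 86.9% in M1CM.

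Of the co-receptors and R-spondin receptors, Lgr4 and Lrp6 fell in M1CM. Lgr4, a receptor for R-spondins, was at 97.5, 68.2, 52.5 and 91.6 CPM in D10, 104, 58.4, 67.7 and 79.3 CPM in Pol1, and 34.4, 43.3, 25.4 and 23.7 CPM in M1CM. D10 and Pol1 libraries overlapped and M1CM lay below both. The log2 fold change in M1CM was -1.29 (SE 0.26) against D10 (edgeR adjusted p = 0.000894) and -1.29 (SE 0.26) against Pol1 (edgeR adjusted p = 0.00221). Lrp6 was at 221, 299, 175 and 168 CPM in D10 and 139, 194, 125 and 129 CPM in M1CM, lower in each rat with overlapping groups (log2 fold change -0.56, edgeR adjusted p = 0.0433). That call was lost without rat 2 or rat 4 (edgeR adjusted p = 0.173 and 0.113), and it had an adjusted p of 0.00226 with the rat term in edgeR.

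Lrp5 did not pass in M1CM against D10 (108 against 101 CPM) and stood at 77.9 CPM in Pol1, lower than D10 in each rat. That Pol1 difference passed with the rat term (log2 fold change -0.39, edgeR adjusted p = 0.00119) and without rat 3 (edgeR adjusted p = 0.0274), and not with all rats and no rat term (edgeR adjusted p = 0.133). M1CM was higher than Pol1 by 0.47 on the log2 scale (edgeR adjusted p = 0.0482), lost without rat 2, 4 or 8 (edgeR adjusted p = 0.0859 to 0.22). This difference was higher in each rat and passed with the rat term (edgeR adjusted p = 0.000175). Lgr5, another R-spondin receptor and a stem cell marker of gut epithelium, did not pass in M1CM or Pol1 against D10.

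The R-spondins themselves split. Rspo1 was at 67.9, 74.1, 75.0 and 40.2 CPM in D10, 98.1, 92.0, 84.4 and 66.5 CPM in Pol1, and 32.7, 19.9, 11.8 and 12.7 CPM in M1CM. Each rat had its highest level in Pol1 and its lowest in M1CM, and M1CM overlapped with no other medium. Rspo1 fell 3.34-fold against D10 (log2 fold change -1.74, SE 0.33, edgeR adjusted p = 0.000562) and 4.43-fold against Pol1 (-2.15, SE 0.33, edgeR adjusted p = 0.000319), while Pol1 against D10 did not pass (0.41, SE 0.32, edgeR adjusted p = 0.424).

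Rspo3, which is known for its part in bone and vessel growth, was at 1.59, 0.376, 0.720 and 1.37 CPM in D10 and 4.86, 1.50, 1.47 and 4.14 CPM in M1CM. It was higher in each rat by 2.05 to 3.99 times, with overlapping groups (log2 fold change 1.56, SE 0.56, edgeR adjusted p = 0.0351). Without rat 2, 4 or 8 this did not pass (edgeR adjusted p = 0.0772 to 0.0944), and with the rat term it had an edgeR adjusted p of 4.56e-05. In Pol1 Rspo3 was at 2.35 CPM on average, higher in each rat, and passed only with the rat term (log2 fold change 1.23, edgeR adjusted p = 0.000814, against 0.158). Rspo4 rose from 0.293 to 1.24 CPM in M1CM (log2 fold change 2.06, SE 0.78, edgeR adjusted p = 0.0428). It met the count filter only with its M1CM libraries. Of its M1CM libraries rat 3 was highest at 3.08 CPM, and the call was lost when any one rat was left out (edgeR adjusted p = 0.0515 to 0.129). The rise passed with the rat term (edgeR adjusted p = 0.000646).

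Of the other secreted modulators, Sfrp2 (ENSRNOG00000009465) rose and Dkk3 fell. Sfrp2 was at 0.711, 1.20, 0.157 and 0 CPM in D10, 3.97, 14.5, 5.81 and 2.27 CPM in Pol1, and 10.7, 30.4, 23.2 and 6.96 CPM in M1CM. D10 overlapped with neither medium, and rat 8, with no count in D10, was also the lowest rat elsewhere. The fitted log2 fold change was 5.14 in M1CM (SE 1.06, edgeR adjusted p = 0.00112) and 3.72 in Pol1 (SE 1.01, edgeR adjusted p = 0.0184), the latter lost without rat 2 or rat 4 (edgeR adjusted p = 0.0565 and 0.123). The Pol1 rise passed with the rat term (edgeR adjusted p = 3.72e-05). M1CM exceeded Pol1 in each rat, which passed only with the rat term (log2 fold change 1.58, edgeR adjusted p = 0.00377, against 0.255 without it).

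Dkk3, a divergent Dickkopf protein that does not clearly act as an inhibitor of Wnt signalling, was at 258, 214, 278 and 258 CPM in D10, 159, 126, 181 and 171 CPM in Pol1, and 119, 97.3, 127 and 134 CPM in M1CM. Both media lay below D10 without overlap, and each rat was lower in M1CM than in Pol1. It fell by 1.08 on the log2 scale in M1CM (SE 0.13, edgeR adjusted p = 1.08e-05) and by 0.66 in Pol1 (SE 0.13, edgeR adjusted p = 0.00245). The difference between M1CM and Pol1 (-0.42, edgeR adjusted p = 0.0293) was lost without rat 2, 4 or 8 (edgeR adjusted p = 0.0845 to 0.141). It passed with the rat term (edgeR adjusted p = 0.00351).

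Sfrp1, which like Sfrp2 binds Wnt ligands, passed only with the rat term. In rats 2, 3, 4 and 8 it was at 40.7, 29.1, 3.04 and 1.17 CPM in D10 and 131, 106, 10.7 and 3.35 CPM in M0CM. Pol1 libraries had 108, 87.7, 17.6 and 4.02 CPM, and those of M1CM 79.6, 26.3, 8.69 and 6.75 CPM. Every rat was above its own D10 level in each medium, except rat 3 in M1CM. With the rat term the log2 fold change was 1.72 in M0CM (edgeR adjusted p = 0.0336), 1.78 in Pol1 (edgeR adjusted p = 0.00158) and 1.19 in M1CM (edgeR adjusted p = 0.0127), and without it the adjusted p in Pol1 was 0.45. Frzb, a related cartilage gene, passed with the rat term in Pol1 (log2 fold change 1.09, edgeR adjusted p = 0.00981, against 0.285) and not in M1CM (edgeR adjusted p = 0.0655). Sfrp4 and Wif1 did not pass in Pol1 or M1CM against D10.

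**Figure D5:**
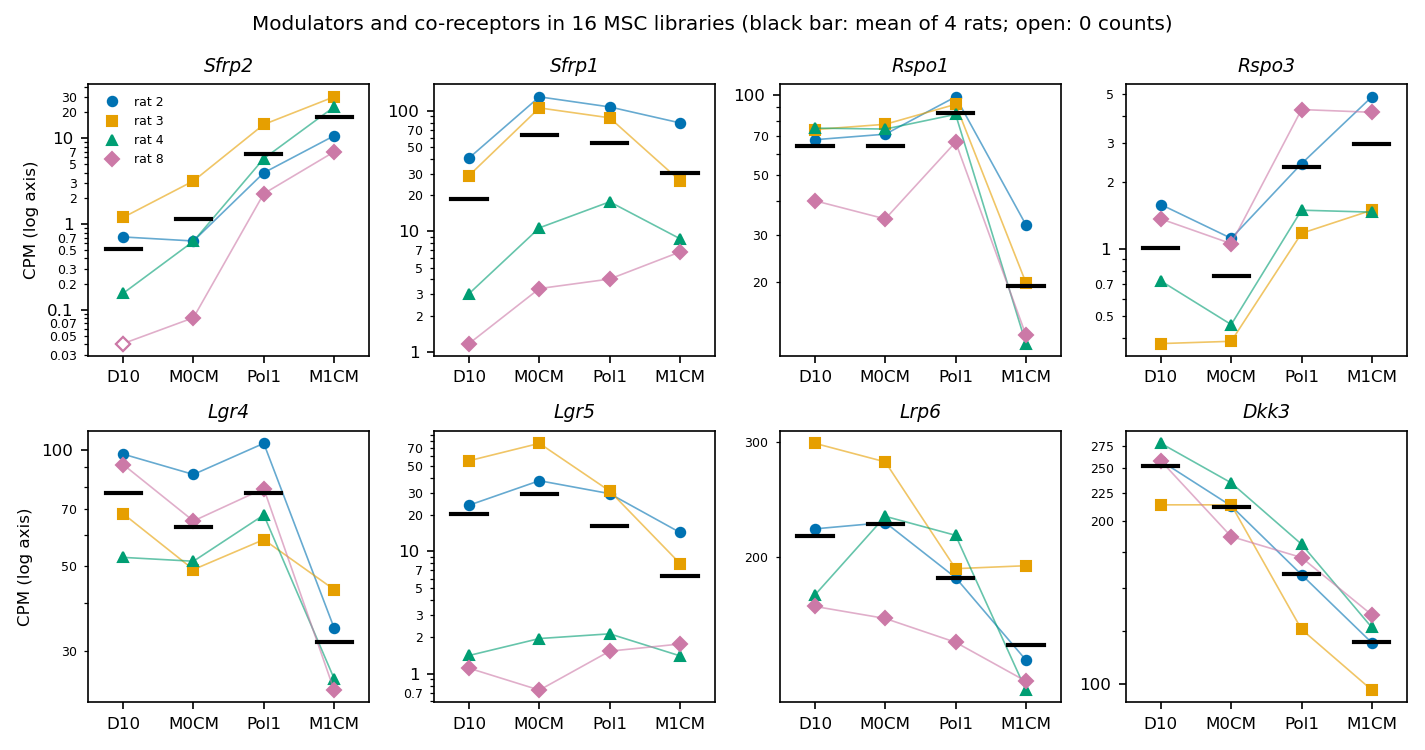
CPM (log axis) of 8 modulators and co-receptors by medium, each point 1 library, lines joining libraries of 1 rat, black bars the mean of 4 rats, and the open symbol a library with 0 counts, drawn below the lowest level above 0. Sfrp2 is lowest in D10, Rspo1 and Lgr4 drop in M1CM, and rats 2 and 3 lie above rats 4 and 8 for Sfrp1 and Lgr5.

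Of the transcription factors downstream, Lef1 and Tcf7 did not pass against D10, while Tcf7l1, given below with the nuclear partners of beta-catenin, fell in M1CM. Lef1 was at 0.672 CPM in D10, 0.743 CPM in Pol1 and 0.736 CPM in M1CM, with adjusted p of 0.905 and 0.868 against D10 in edgeR. Tcf7 was at 4.22, 4.90 and 3.21 CPM in the same order and passed only between M1CM and Pol1 with the rat term (log2 fold change -0.70, edgeR adjusted p = 0.0402).

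M1CM against Pol1 sets inflammatory macrophage medium beside the polarizing factors without macrophages. With Pol1 as labelled, this comparison may also change the base medium, and the LPS and IFNg left in M1CM were not measured. Fzd1, Wnt5a and Lrp5 were higher (3 of 29, beside 13.8% of all tested genes) and Fzd2, Fzd4, Lgr4, Rspo1, Dkk3 and Wnt9a were lower (6 of 29, beside 11.3%). With the rat term the counts became 6 and 9, beside 2691 and 2645 of all 13556 tested genes. Rspo4, Sfrp2 and Wnt2b joined the higher genes and Lrp6, Tcf7 and Wnt16 the lower ones. The Wnt9a difference (log2 fold change -0.96, edgeR adjusted p = 0.045) was lost when any one rat was left out (edgeR adjusted p = 0.0591 to 0.22). It passed with the rat term (edgeR adjusted p = 0.00267). Without rat 4 or rat 8 only 3 genes were lower, and without rat 2, 4 or 8 only 1 was higher, which was Fzd1.

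M0CM against D10, the control for medium of resting macrophages, gave 0 higher and 0 lower of 29 in edgeR, beside 0.125% and 0.0148% of all tested genes, and 0 in DESeq2. An unadjusted p below 0.05 was reached by 4 genes, Fzd5, Sfrp4, Wnt2b and Wnt4. With the rat term Sfrp1 and Sfrp4 were higher and Wnt4 was lower, beside 107 higher and 42 lower of all 13556 tested genes. Sfrp4 stood at 58.3, 29.8, 40.7 and 43.7 CPM in D10 and 84.5, 56.8, 85.1 and 74.5 CPM in M0CM, higher in each rat (log2 fold change 0.83 with the rat term, edgeR adjusted p = 0.0198, against 0.841 without it). Fzd5 was lower in each rat, at 5.51 against 7.80 CPM on average, and did not pass in either fit (edgeR adjusted p = 0.694 and 0.171).

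M1CM against M0CM, which sets both macrophage media against each other, had 8 genes higher and 10 lower (21.5% and 18.8% of all tested genes). The 18 genes and their directions were those of M1CM against D10. With the rat term 8 were higher and 13 lower, beside 3561 and 3526 of all 13556 tested genes. Fzd6, Lgr5 and Sfrp4 joined the lower genes in that fit. Wnt2b, called higher, was lower in rat 3 (M1CM to M0CM ratio 0.835). Behind Wnt7b, the largest fitted rises were 15.6-fold for Sfrp2 and 11.8-fold for Wnt4 (log2 fold change 3.56, SE 0.35, edgeR adjusted p = 1.35e-06). Wnt7b had 2 counts in M0CM, and from the summed counts its ratio was 88.7 with a 95% counting interval of 24.2 to 738. Without rat 2 or rat 4 the higher genes numbered 5, and the calls of Wnt2b, Rspo3, Rspo4, Sfrp2, Wnt5a, Lgr4, Lrp6 and Wnt16 were lost in at least 1 fit with one rat left out. All of these genes passed with the rat term.

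Several genes differed between rats in every medium, and these differences were not tested. Lgr5 in rats 2 and 3 was at 23.9 and 55.2 CPM in D10 and in rats 4 and 8 at 1.41 and 1.11 CPM, and the same rats stood apart in M0CM (37.9 and 76.6 against 1.94 and 0.735 CPM), Pol1 (29.7 and 31.2 against 2.12 and 1.53 CPM) and M1CM (14.3 and 7.97 against 1.40 and 1.75 CPM). Lgr5 was lower in M1CM than in M0CM only with the rat term (log2 fold change -1.35, edgeR adjusted p = 0.0291). Sfrp1 and Wnt16 had the same order of rats, 2 and 3 above 4 and 8, in all 4 media. Fzd4 ran against them in D10, M0CM and Pol1, where rats 4 and 8 were highest. Wif1 was highest in rat 3 in all 4 media, at 5.75 CPM (D10), 6.84 CPM (M0CM), 5.53 CPM (Pol1) and 3.98 CPM (M1CM), against 1.35 to 2.83 CPM in the other rats.

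Other genes of the pathway, from a list of 74 of which 67 were matched and 61 tested, fell more often than they rose in M1CM: 7 were higher and 23 lower (11.5% and 37.7% of those tested, beside 23.3% and 21.1% of all tested genes). The rat term gave 11 and 28, beside 3771 and 3719 of all 13556 tested genes. Pol1 had 4 higher and 10 lower against D10 (6.56% and 16.4%, beside 10.6% and 8.09% of all tested genes). The rat term gave 9 and 19, beside 2203 and 2192 of all 13556 tested genes. Leaving out rat 3 or rat 4 gave 1 higher with 4 or 3 lower, and leaving out rat 8 gave 6 lower. The largest group of falls was among Dishevelled and its regulators, where 6 of 8 genes fell (75.0%, beside 21.1% of all tested genes), led by Dact1 (30.6 to 0.976 CPM, log2 fold change -4.96, edgeR adjusted p = 3.22e-09) and Nkd2 (99.1 to 7.05 CPM, -3.81), both known to restrain Dishevelled. Of 7 further genes listed under co-receptors and other Wnt receptors, 5 fell and 1 rose (71.4% and 14.3%, beside 21.1% and 23.3% of all tested genes). Ror1, a receptor for Wnt5a, was at 9.17 CPM in D10 and 1.43 CPM in M1CM (-2.69), and Lrp4 rose from 31.4 to 135 CPM (2.10). Whether Lrp4 acts as a Wnt receptor in these cells was not tested.

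Of genes for Wnt secretion, Wls, the carrier of Wnt proteins to the cell surface, fell from 421 to 193 CPM (log2 fold change -1.12, edgeR adjusted p = 3.77e-05) while Wnt4 and Wnt5a rose. Among 3 genes listed under receptor turnover, Rnf43, a ligase that removes Frizzled from the surface (-2.13), and Lgr6 (-1.28) fell at under 1 CPM (66.7%, beside 21.1% of all tested genes). Lgr6 was lower in 3 of 4 rats, with overlapping groups. The remaining gene of this list, Tspan12, was not called. Igfbp4 (-3.01) and Apcdd1 (-2.28) were 2 of 3 antagonists that fell of 5 tested (60.0%, beside the same 21.1%). In the beta-catenin destruction complex 2 of 9 rose (22.2%, near the 23.3% of all tested genes) and no gene fell. These were Btrc, by 0.62, and Fbxw11, by 0.37 on the log2 scale. Listed genes not matched by name, and so not examined, include Axin1, Tnks2, Znrf3 and Ctnnb1, the gene of beta-catenin. Among 10 nuclear partners of beta-catenin 1 rose, Tle4, a co-repressor (1.41), and 2 fell, Tcf7l1 (-1.39) being the larger change. These are 10.0% and 20.0%, beside 23.3% and 21.1% of all tested genes. In planar cell polarity 1 of 8 fell (12.5%, beside 21.1% of all tested genes). This was Prickle1 (-1.20, edgeR adjusted p = 0.0274), which was lower in 3 of 4 rats.

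Of 9 target genes 3 were higher and 3 lower (33.3% each, beside 23.3% and 21.1% of all tested genes). Wisp2 fell from 428 to 7.26 CPM (log2 fold change -5.87, SE 0.80, edgeR adjusted p = 3.39e-05) and Fosl1, an AP-1 subunit with other inputs as well, rose from 6.78 to 81.4 CPM (3.59, SE 0.29, edgeR adjusted p = 1.57e-07). In M0CM none of the 61 genes passed in edgeR or reached an unadjusted p below 0.05.

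Of the 29 tested genes 17 had a gene start window of 300 bases in the RefSeq table. Searched on both strands, CTTTGAT (Tcf and Lef factors) was in 3.63% of all 33465 windows and in that of Tcf7. TTCNNNGAA was in 8.87% of all windows and in those of Fzd4 and Lgr4, both lower in M1CM. The core of the interferon-stimulated response element, GAAANNGAAA, was in 3.92% of all windows and in that of Frzb. The NF-kB motif was in 7.51% of all windows and in those of Fzd5, Rspo1, Sfrp2 and Wnt16, of which Sfrp2 rose in M1CM and the other 3 fell. None of these motifs was in the windows of Wnt4, Wnt5a, Wnt2b, Fzd1 and Rspo3, which rose, of Fzd7 and Wnt9a, which fell, or of Lef1 and Wif1, which were not called. A match is a description of the window only.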

How the data were processed

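The authors sequenced libraries of a NEBNext Ultra kit, aligned reads to a rat Rnor assembly with TopHat2 2.0.12 and Bowtie2 2.2.3, and counted fragments on exons with HTSeq 0.6.1, per their methods and the submitters' processing notes. The strand setting of the count is not given in the sources used here. The deposited table holds fragment counts per gene and library and FPKM values that the authors computed. It also holds the authors' own group means, fold changes, p-values and calls (DESeq 1.18.0 in the notes), which were not used.

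Groups and rats were taken from the labels. Counts were scaled by TMM and tested with edgeR 4.0.16 in R 4.3.3 (quasi-likelihood F test, two-sided, 16 libraries, 1 term per condition, at least 10 counts in at least 4 libraries, 13556 genes, Benjamini-Hochberg adjustment). CPM are counts per 1e6 TMM-scaled counts. The SE is the log2 fold change divided by the root of F. Fits were tested on simulated data with independent libraries and no difference between rats. That check does not cover the use of the same rats in every medium. FPKM of 43 of 44 genes equalled counts divided by length and library total within 0.1%. Totals were 23291125 to 31992709 counts per library.

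Alternatives were DESeq2 1.42.0, other scalings, no count filter, only the compared conditions, each rat left out, and a term for the rat. The labels give the same 4 animals in every condition, and deviations from the condition means correlated at 0.33 to 0.728 in 24 pairs of libraries of the same rat and at -0.519 to 0.225 in 72 pairs of other rats. The genes, their roles and all lists were chosen with earlier results of these data known. All genes of the name rule are described. Of the other pathway genes, up to 2 per role were named, those called with the largest change in M1CM against D10. Gene start windows came from RefSeq (GRCr8), an assembly other than the one used for counting, so only sequence and names were taken from it. Intervals and limits cover counting error only.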

Additional observations from a re-analysis of the deposited data

Results flagged for a closer look

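Within the 4 libraries of a condition, 1 library stood far from the others (by Dixon's test) in 6 of 116 sets of values, and chance alone flags about 1 in 20. Wif1 was set apart in rat 3 in 3 media: 5.75 CPM in D10 against 1.71 to 2.07 CPM, 6.84 CPM in M0CM against 1.35 to 2.08 CPM, and 5.53 CPM in Pol1 against 2.15 to 2.27 CPM. In M0CM, rat 3 also stood apart for Wnt2b, at 2.92 CPM against 0.518 to 0.857 CPM. Its Wnt7b value there, 0.0769 CPM, is 2 counts against 0 in the other rats. Rspo1 in M0CM was low in rat 8, at 34.4 CPM against 71.2 to 77.5 CPM.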

How the results depend on the processing

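Under the alternatives tried no called gene changed direction. With the replicate block (a term for the rat), counts of genes called became 8 higher and 7 lower in Pol1 against D10, 6 higher in M1CM against Pol1, and 2 higher and 1 lower in M0CM against D10. Of all 13556 tested genes, that fit called 2203 higher and 2192 lower in Pol1 against D10. It called 2691 higher in M1CM against Pol1, and 107 higher and 42 lower in M0CM against D10. For M1CM against Pol1, 1 gene was higher with library totals and 1 with only both compared conditions in the fit. With no filter on low counts, Lrp5 (edgeR adjusted p = 0.0647), Wnt5a (0.0561) and Wnt9a (0.054) did not pass in that comparison, nor Rspo4 in M1CM against D10 (0.0545). With one rat left out, higher genes numbered 1 to 5 in Pol1 against D10, 1 to 3 in M1CM against Pol1, 6 to 7 in M1CM against D10 and 5 to 7 in M1CM against M0CM. Lower genes numbered 4 to 5, 3 to 5, 8 to 9 and 8 to 9 in the same order. These fits hold fewer samples and no term for the rat. DESeq2 moved the call of 1 result of 75, Wnt9a in Pol1 against D10 (adjusted p = 0.0451), and median-of-ratios scaling moved none. Genes under about 1 CPM rest on few counts.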
